A study of Mus musculus with 3 samples.

Results

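Mir101a and Mir101b are 2 mouse genes of miR-101, and in MIN6 cells the 3p arm of each gave reads from a pair of neighbouring 5′-starts. These 2 genes were chosen by their ratio of 5′-shifted to reference reads, out of 21 5′-shifted isomiRs that the study tabulated together with their reference forms. That ratio is therefore given here as a description and was not tested. MIN6 is a mouse insulinoma line that stands in for pancreatic beta cells, the cells that secrete insulin, so the libraries hold 1 cultured line and not primary islet cells. Small RNA was sequenced from 3 biological replicates, all grown in medium with 25 mM glucose, and there was no other condition. The mapped reads summed to 9269795, 10816006 and 10218743 in replicates 1, 2 and 3. The beta cell miRNA miR-375-3p was measured at 334275, 357402 and 371065 RPM (reads relative to 1000000 mapped reads), and miR-182-5p, also abundant in beta cells, at 37073 ± 2197 RPM (mean ± SD, n = 3).

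A miRNA is cut from a hairpin precursor, first by Drosha at the base of the stem and then by Dicer near the loop. On a 3p arm, the Dicer cut sets the 5′-start and the Drosha cut sets the 3′-end. Targets are recognized mainly through the seed, bases 2 to 8, so a 5′-start that moves by a single base changes the seed. Bases that the genome does not encode can be added to the 3′-end, most often uridine or adenosine, and are known as non-templated additions (NTAs). miR-101 is a conserved family best known for repressing the histone methyltransferase EZH2.

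The sequences show how both genes encode the same pair of seeds. They are the first 22 bases from each start, written 5′ to 3′ from the hairpins in RefSeq (table build GRCm38.p6), with the seed in capitals. The form that starts at U is the 5′-reference miRNA of the study, and the form that starts 1 base upstream, at G, is the 5′-shifted isomiR, marked -1.
miR-101a-3p: uACAGUACugugauaacugaag
miR-101a-3p-1: gUACAGUAcugugauaacugaa
miR-101b-3p: uACAGUACugugauagcugaag
miR-101b-3p-1: gUACAGUAcugugauagcugaa
Both reference forms share the seed ACAGUAC, and both -1 forms share UACAGUA. Among 1738 mature mouse miRNAs in the RefSeq table, each of these seeds occurred once, ACAGUAC in miR-101a-3p and UACAGUA in miR-101b-3p. RefSeq thus starts its miR-101a-3p at the U and its miR-101b-3p at the G, whereas the study took the U as the reference start at both genes. Over bases 2 to 7 the reference form also matched miR-144-3p, and the -1 form also matched miR-582-5p.

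The hairpins differ little around this arm. In the following lines, which begin 3 bases before the U start, capitals mark the bases that differ between the genes.
Mir101a around the 3p start: agguacaguacugugauaAcugaagGaug
Mir101b around the 3p start: agguacaguacugugauaGcugaagAaug
Counted from the U start as base 1, the differences from Mir101a to Mir101b were A16G and G23A. A read of the common lengths therefore names its gene by base 16 alone.

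The RefSeq hairpin of Mir101a lies on the minus strand of chromosome 4, from 101346945 to 101347027 in GRCm38, inside an exon of the long noncoding RNA gene E130102H24Rik in GENCODE. That of Mir101b lies on the plus strand of chromosome 19, from 29135279 to 29135375, inside the protein-coding gene Rcl1 on the same strand and outside its annotated exons. The alignments use mm9, where the reference start of miR-101a-3p was at position 101019582 of chromosome 4 and the -1 start at 101019583. For miR-101b-3p the reference start was at 29209829 of chromosome 19 and the -1 start at 29209828. The base at each start was settled from the recorded mismatches, since a mismatching base cannot be the base in the genome. With the reference start on the U, 0 of 35 hairpin positions at Mir101a and 0 of 28 at Mir101b were contradicted. With the reference start moved to the neighbouring G, 21 of 35 and 22 of 28 were.

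The -1 form was the more abundant form at both genes in every library. miR-101a-3p-1 was expressed at 419, 371 and 394 RPM in replicates 1, 2 and 3, and miR-101a-3p at 191, 183 and 177 RPM. miR-101b-3p-1 was expressed at 255, 222 and 255 RPM, and miR-101b-3p at 144, 129 and 137 RPM. In order of their means, the levels were 394 ± 23.8 RPM for miR-101a-3p-1, 244 ± 19.3 RPM for miR-101b-3p-1, 184 ± 7.25 RPM for miR-101a-3p and 137 ± 7.63 RPM for miR-101b-3p (SD, n = 3). With all alignments as placed, no 2 neighbours in this order overlapped in any pair of libraries. The ratio of -1 to reference reads was 2.15 ± 0.105 at Mir101a and 1.78 ± 0.0726 at Mir101b (SD, n = 3). With reads without a mismatch only, these ratios were 4.44 ± 0.173 and 2.34 ± 0.138, and miR-101a-3p was at 80.2 ± 6.83 RPM and miR-101b-3p at 87.6 ± 5.76 RPM (SD, n = 3), so that the order of the 2 reference forms turned and their libraries overlapped. At Mir101a, on the minus strand, the order of the forms rests on the placement of these reads. As deposited they span 13 to 40 bases, against 14 to 41 for reads with a mismatch, and they were lengthened by 1 base here. With this correction, both starts at Mir101a matched the study's tabulated expression of the forms within 0.2% in each library. The study's own values thus have the same order of forms. With ends as written in the files, chosen for this ratio after seeing the data, it was 0.0848 ± 0.00434 at Mir101a and 1.78 ± 0.0726 at Mir101b (SD, n = 3). The -1 form held 68.6% of the reads of both forms at Mir101a in replicate 1, with a 95% Wilson interval of 67.4% to 69.8%. At Mir101b in the same library it held 63.9%, with an interval of 62.3% to 65.4%. The reads carry no molecular identifiers, so such intervals cover counting error only.

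**Figure D1:**
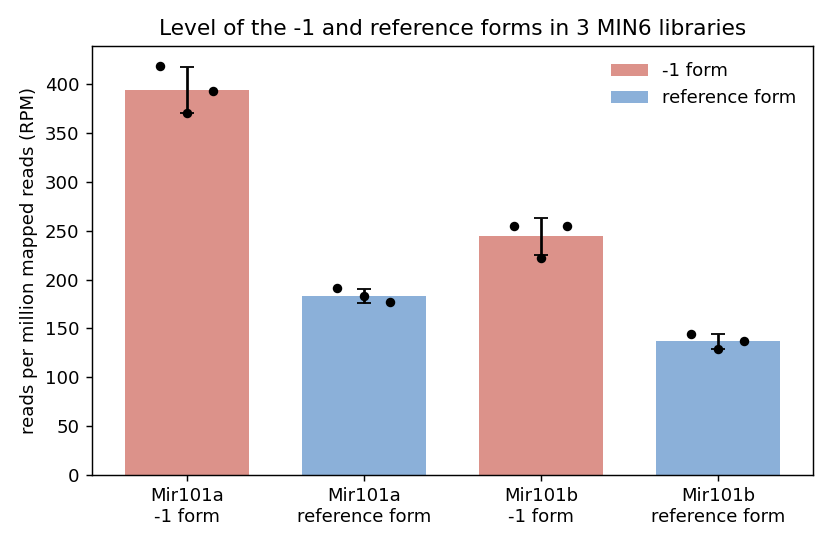
Level in RPM of the -1 and reference forms of the 3p arm at Mir101a and Mir101b. Bars are means, error bars are SD over 3 libraries and each point is 1 library; the -1 form is the taller bar at both genes, 394 against 184 RPM at Mir101a and 244 against 137 RPM at Mir101b.

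Over both genes, the seed UACAGUA was carried by 639 ± 41.6 RPM and the seed ACAGUAC by 320 ± 13.1 RPM (SD, n = 3). Mir101a contributed 61.8% ± 1.00 of the former and 57.3% ± 1.18 of the latter (SD, n = 3). The order of the seeds and these shares rest on the placement of the Mir101a reads, which with corrected ends matched the study's tabulated levels of both forms. With ends as written in the files, the Mir101a ratio was 0.0848 ± 0.00434 (SD, n = 3), and the seed totals were not computed. Other starts on the 3p arm were rare. The -1 and reference starts held 99.9% ± 0.0542 of the 3p reads of Mir101a and 98.9% ± 0.296 of those of Mir101b (SD, n = 3). At Mir101b the +1 start had 28, 51 and 32.3 reads, 0.957% ± 0.319 of the arm (SD, n = 3), and at Mir101a it had 0.00924% ± 0.00856 (SD, n = 3).

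Across 207 clusters of 5′-starts in these libraries with at least 1000 reads at the leading start, mostly of 19 to 25 nt, the neighbouring start had at least 40% of the leading start's reads in 6.76%. Both genes were among these 14 clusters, as their choice by this ratio implies. With at least 100 reads at the leading start, it did in 13.96% of 616 clusters. The limit of 40% was set after seeing the data. The clusters were not limited to miRNAs, and repeated genomic copies counted separately. Of the 19 other tabulated 5′-shifted isomiRs, the nearest in ratio to both genes were miR-140-3p+1, at 1.95 ± 0.310, and miR-483-3p+1, at 2.55 ± 0.0810 (SD, n = 3), where +1 marks a start 1 base downstream. They were followed by miR-136-3p-1 for Mir101a, at 7.73 ± 0.331, and miR-409-3p-1 for Mir101b, at 0.526 ± 0.0416 (SD, n = 3).

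Whether the forms shared their 3′-ends was asked of reads without a mismatch, whose ends are templated. Positions are counted from the U of the reference start as base 1, so that a -1 read is 1 base longer than a reference read with the same end. The -1 and reference forms shared only part of their ends, and the reference form ended further downstream at both genes. The overlap, the sum over ends of the smaller share, was 56.2%, 51.2% and 55.7% in replicates 1, 2 and 3 at Mir101a, and 53.6%, 51.0% and 55.5% at Mir101b. The mean end of miR-101a-3p-1 was 19.7 ± 0.0411 and that of miR-101a-3p was 20.9 ± 0.0491 (SD, n = 3). Their difference was 1.21, 1.35 and 1.19 nt in replicates 1, 2 and 3. At Mir101b the mean end was 19.6 ± 0.0178 for the -1 form and 20.8 ± 0.0641 for the reference form, and they differed by 1.16, 1.18 and 1.09 nt. The exact two-sided sign-flip permutation test gave p = 0.25 for each gene, the smallest p that 3 libraries allow, so no difference here could reach 0.05.

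Among these reads, the gap was widest at base 22. Reads that ended there made up 35.5% ± 2.62 of the reference form at Mir101a and 44.7% ± 2.52 at Mir101b (SD, n = 3). The -1 form ended there in 4, 2 and 0 reads at Mir101a and in 1, 1 and 0 reads at Mir101b, although it was the more abundant form. At the other side, base 18 was the end of 18.1% ± 1.23 of miR-101a-3p-1 and 1.17% ± 0.474 of miR-101a-3p (SD, n = 3). The -1 forms peaked at base 20, with 42.2% ± 0.456 at Mir101a and 38.3% ± 2.46 at Mir101b (SD, n = 3). The reference forms differed between the genes below base 22. miR-101a-3p had a further 32.1% ± 1.20 at base 21, whereas miR-101b-3p had 25.4% ± 2.44 at base 19 and 11.9% ± 1.06 at base 21 (SD, n = 3). Over all alignments with mismatching 3′ bases removed, a count by base chosen after seeing the data, the widest gap at Mir101a was at base 21, with 58.4% ± 1.79 of miR-101a-3p and 24.5% ± 1.69 of miR-101a-3p-1, and base 22 held 19.6% ± 1.13 of miR-101a-3p (SD, n = 3). At Mir101b it stayed at base 22, with 43.3% ± 1.71 of miR-101b-3p and 0.0956% ± 0.0272 of miR-101b-3p-1 (SD, n = 3).

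**Figure D2:**
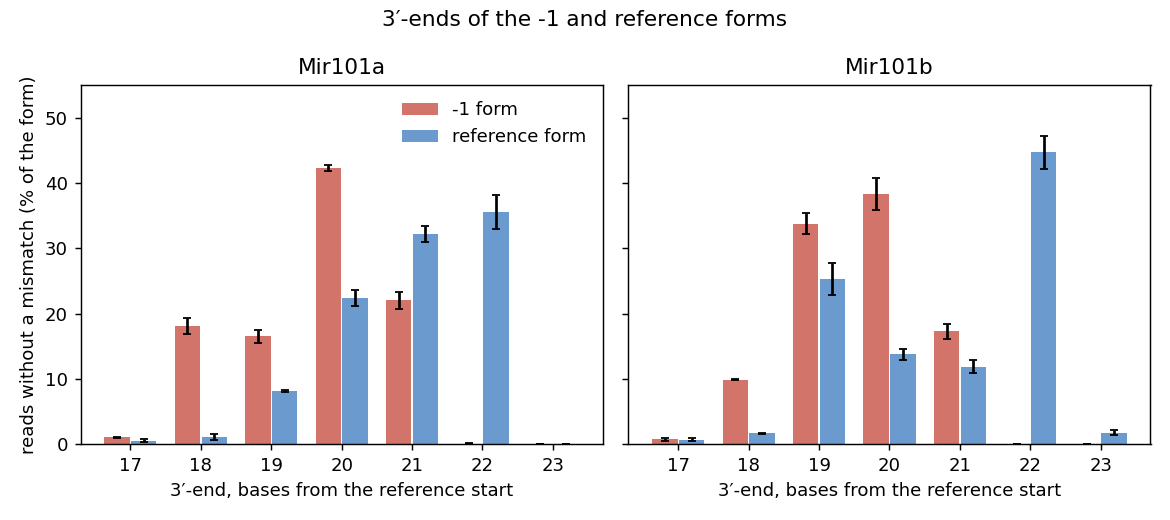
Share of the reads without a mismatch by 3′-end, in bases from the reference start, for the -1 and reference forms of each gene. Bars are means and error bars SD over 3 libraries; at base 22 the reference form has 35.5% of its reads at Mir101a and 44.7% at Mir101b, and the -1 form has almost none.

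In read length, with all alignments included, 22 nt was the main length of the reference forms and 21 nt that of the -1 forms. Reads of 22 nt were 64.2% ± 2.75 of miR-101a-3p and 47.1% ± 1.44 of miR-101b-3p, against 22.2% ± 1.29 of miR-101a-3p-1 and 19.9% ± 1.19 of miR-101b-3p-1 (SD, n = 3). Reads of 21 nt were 40.9% ± 0.0185 of miR-101a-3p-1 and 36.3% ± 2.01 of miR-101b-3p-1. The overlap of the forms by length in place of end, a comparison chosen after seeing the data, was 57.2% ± 3.94 at Mir101a and 55.6% ± 0.852 at Mir101b over all alignments (SD, n = 3). Among reads without a mismatch, the set in which the ends were compared, it was 79.9% ± 2.07 and 53.6% ± 0.515 (SD, n = 3).

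With reads placed as above, a last base that did not match the genome was far more frequent in the reference forms. At Mir101a it was found in 50.2%, 54.8% and 52.8% of the reference reads in replicates 1, 2 and 3, and in 6.26%, 5.67% and 6.66% of the -1 reads. At Mir101b it was found in 29.1%, 29.9% and 31.2% of the reference reads and in 12.1%, 11.2% and 10.9% of the -1 reads. No -1 value reached a reference value at either gene. The difference was 46.4 ± 2.63 percentage points at Mir101a and 18.7 ± 1.65 at Mir101b (SD, n = 3), each with p = 0.25 in the exact two-sided sign-flip permutation test. At Mir101a its direction rests on the placement of reads without a mismatch, with which both forms matched the study's tabulated levels once their ends were corrected. With ends as written in the files, the -1 start had 0, 0 and 1 such reads and the reference start 3513, 3620 and 3609. The last bases were not compared in that setting. In replicate 1, the 95% Wilson intervals were 47.8% to 52.5% for miR-101a-3p and 5.54% to 7.07% for miR-101a-3p-1, and 26.8% to 31.6% for miR-101b-3p and 10.8% to 13.5% for miR-101b-3p-1.

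Uridine was the most frequent of these bases in all forms. It made up 78.7% ± 1.73 of the mismatching last bases of miR-101a-3p, 83.3% ± 3.00 of those of miR-101b-3p, 69.1% ± 0.949 of those of miR-101b-3p-1 and 49.6% ± 2.73 of those of miR-101a-3p-1 (SD, n = 3). As a share of all reads of the form, a uridine mismatch ended 41.4% ± 1.27 of miR-101a-3p and 3.08% ± 0.408 of miR-101a-3p-1 (SD, n = 3). Cytidine came next for miR-101a-3p, at 8.65% ± 1.53 of its reads, and adenosine ended 2.47% ± 0.361 of them (SD, n = 3). Part of this cytidine was in reads divided with copies on chromosome 9, described below. Those with a cytidine pair after base 20 counted 53.8, 56.2 and 58.5 here in replicates 1, 2 and 3, and those with 1 cytidine there 13, 9.25 and 15.3. An added base that equals the genome's next base counts as templated here, so a guanosine after base 21 or an adenosine after base 19 or 20 cannot be seen.

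**Figure D3:**
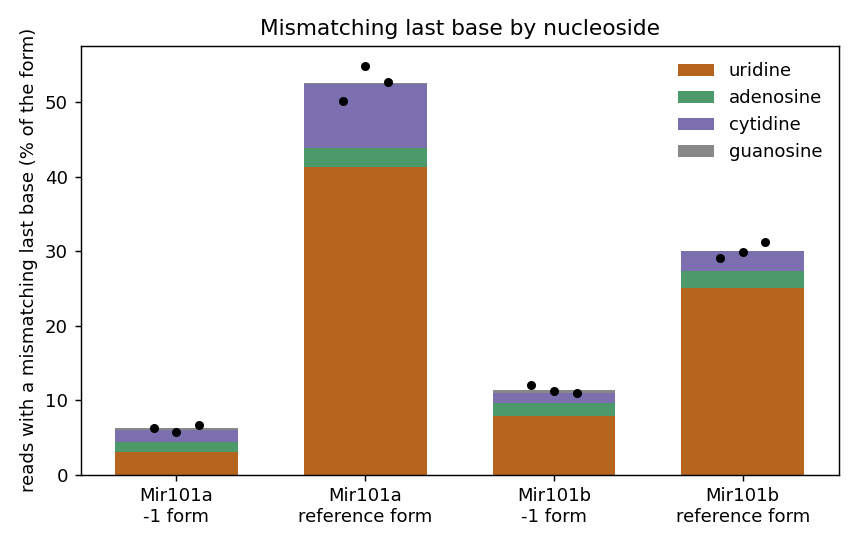
Reads with a mismatching last base, as a percentage of the reads of each form, divided by the nucleoside in the read. Stacked bars are means over 3 libraries and points are the totals of single libraries; the reference forms reach 52.6% at Mir101a and 30.1% at Mir101b, most of it uridine.

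Among the templated ends compared, the forms differed most after base 21. There, miR-101a-3p had a single added uridine in 596, 654 and 633 reads, against 264, 255 and 259 reads that ended at base 21 without an addition. Hence 69.3%, 71.9% and 71.0% of these reads carried the uridine. For miR-101a-3p-1 the same end carried it in 64, 46 and 76 reads against 810, 743 and 811 without, or 7.32%, 5.83% and 8.57%. With the uridine, the reference read is 22 nt long and the -1 read 23 nt. At Mir101b the shares after base 21 were 45.6%, 50.7% and 55.7% for the reference form and 13.0%, 8.17% and 11.8% for the -1 form. This comparison at a common end was chosen after seeing the data, and its exact two-sided sign-flip permutation p was 0.25 at each gene. At Mir101a the comparison also rests on the placement of reads without a mismatch, and it was not run with ends as written in the files.

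At other ends the forms were closer. After base 19 the uridine share was 5.23% ± 1.42 for miR-101a-3p and 5.60% ± 0.477 for miR-101a-3p-1, and 9.03% ± 0.713 for miR-101b-3p and 5.19% ± 1.14 for miR-101b-3p-1 (SD, n = 3). After base 20 it was 6.06%, 10.2% and 6.67% for miR-101b-3p and 8.10%, 10.6% and 8.74% for miR-101b-3p-1 in replicates 1, 2 and 3, so that here the -1 form was the higher in each library. At Mir101a the shares after base 20 were 0.733% ± 0.184 and 0.212% ± 0.0231 (SD, n = 3), and most such -1 reads were given to copies on chromosome 9. After base 22, an end that the -1 forms almost lacked, it was 10.1% ± 2.22 for miR-101a-3p and 23.8% ± 1.63 for miR-101b-3p (SD, n = 3).

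**Figure D4:**
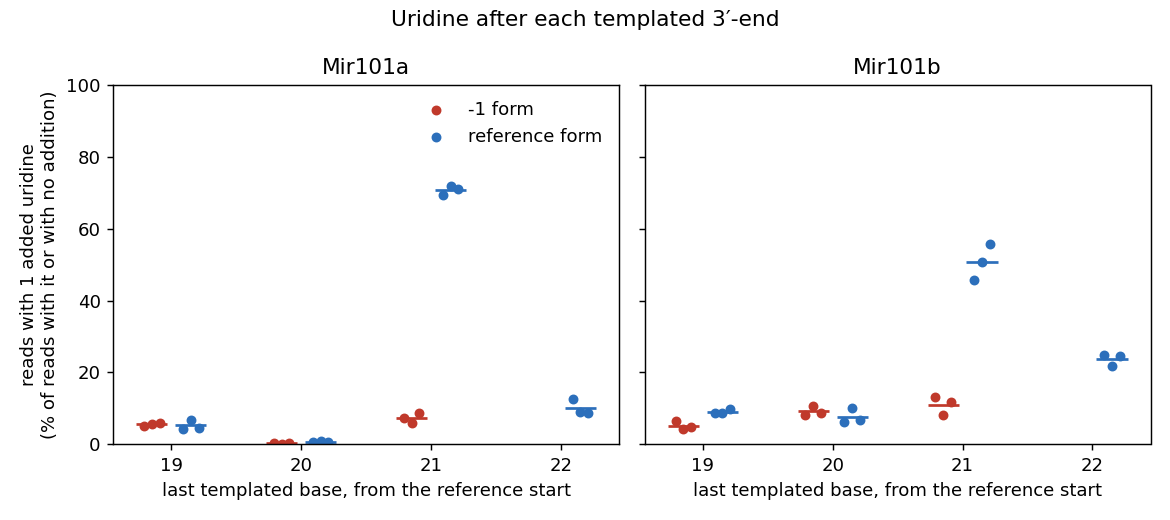
Share of reads with 1 added uridine among the reads that have it or have no addition, by the last templated base counted from the reference start. Each point is 1 library and each line a mean of 3, shown for ends with at least 100 such reads; at base 21 the reference form stands at 70.7% at Mir101a and 50.6% at Mir101b, and the -1 form at 7.24% and 11.0%.

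Set against other pairs of neighbouring starts, the difference in the last base was large and that in the end less so. Cluster values are from the mean of the 3 libraries' reads. In 69 clusters both starts had at least 100 reads, and the later start exceeded the earlier one in mismatching last bases by at least 10 percentage points in 10.1%, that is 7 clusters, with both genes among them. The median over the 69 was -0.355 points. Mir101a stood second and 4 clusters were above Mir101b. In the other direction, the later start was lower by at least 10 points in 6 clusters, down to -33.1 points. In mean 3′-end, 27.4% of 62 clusters had a later start that ended at least 0.5 nt further downstream, again with both genes among them, and 6 clusters exceeded Mir101a. Both limits were set after seeing the data. The overlap of ends had a median of 87.1% over the 62 clusters, of which 9 were lower than Mir101a and 8 lower than Mir101b. Among the 19 other 5′-shifted isomiRs, the later start had more mismatching last bases in 10, by at most 9.26 points, and fewer in 9, down to -33.1 points at miR-127-3p-1, named after its value was seen. In mean end, 9 of the 19 differed by at least 0.5 nt, up to 1.95 nt. Their overlap of ends had a median of 72.7% and ran from 20.4% to 99.3%. For miR-140-3p+1, nearest in ratio, the later start had 3.24 ± 4.61 points more mismatching last bases and a mean end 0.574 ± 0.146 nt further downstream (SD, n = 3). For miR-483-3p+1 these values were -10.00 ± 1.19 points and 0.562 ± 0.00933 nt. The overlap of ends was 56.7% ± 10.7 for miR-140-3p+1 and 62.5% ± 0.471 for miR-483-3p+1 (SD, n = 3).

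**Figure D5:**
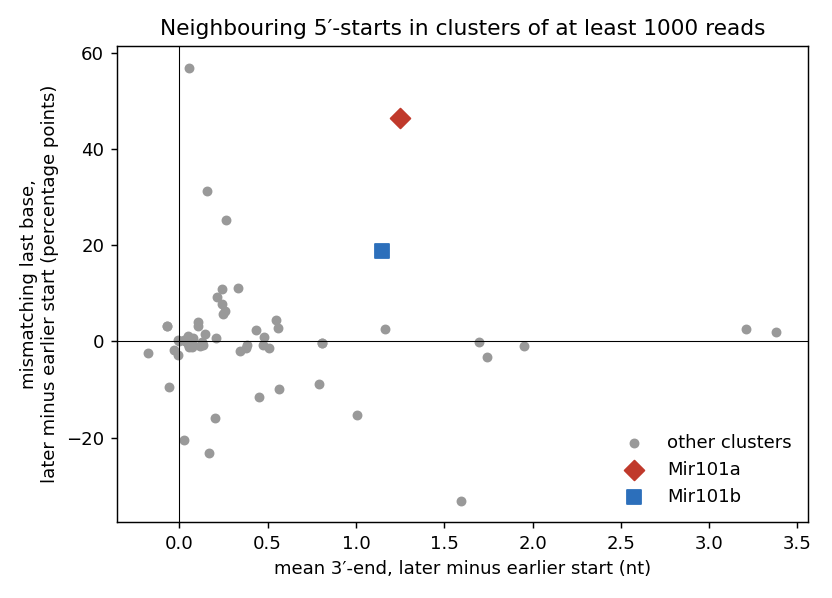
Neighbouring 5′-starts in clusters with at least 1000 reads at the leading start and 100 at the other. The x axis is the mean 3′-end of the later start minus that of the earlier start in nt, and the y axis the same difference in mismatching last bases in percentage points; Mir101a lies at 1.25 nt and 46.5 points, Mir101b at 1.15 nt and 18.7 points.

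Most reads had a whole-number value, as reads with a single locus have, although divided reads can also add up to whole numbers. Summed over the 3 libraries, whole-number values held 98.5% of miR-101a-3p-1, 94.5% of miR-101a-3p, 98.4% of miR-101b-3p-1 and 99.6% of miR-101b-3p. With these reads alone the ratio of -1 to reference reads was 2.24 at Mir101a and 1.76 at Mir101b, and the mean ends differed by 1.25 and 1.15 nt. Reads of the -1 forms with a C at base 16 had nearly equal values at both, 37, 59.5 and 65.5 reads as A16C at miR-101a-3p-1 in replicates 1, 2 and 3 and 37, 60.5 and 65.5 reads as G16C at miR-101b-3p-1. A-to-G mismatches at other adenosines of Mir101a reached at most 0.170%, 0.101% and 0.111% of a form at any position in replicates 1, 2 and 3. At base 16, where such a read would count for Mir101b, these rates would come to 9.58, 6.06 and 6.46 reads, at most 0.259% of the Mir101b reads. The rate at base 16 itself could not be measured, so these counts set no upper limit there.

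At 10 copies on the minus strand of chromosome 9, between positions 3038699 and 3070003 in mm9, alignments had the same length and fractional value as alignments at Mir101a in the libraries where the copy had reads, as reads divided among loci do. RefSeq lists Mir101c on that chromosome, with a mature sequence of 19 nt that equals miR-101a-3p from its second base on. Reads of 22 nt with a cytidine pair after base 20 came to 269, 281 and 234 reads over all loci, and Mir101a received 53.8, 56.2 and 58.5 of them. A further 390, 388 and 344 reads of 22 nt lay at the chromosome 9 copies and not at Mir101a. They differ from Mir101a by A21C and by their last base. They also differed from the copies. At 2 copies the reads had a mismatching adenosine at base 7, and at 1 copy, in replicates 1 and 2, a mismatching uridine at base 1. Mir101a has the same base as the reads at both positions. In total the copies held 688, 702 and 601 reads at the reference start, or 26.4% ± 1.51 of the reads at this start over the copies and Mir101a together, and 142.9, 114 and 125 reads at the -1 start, or 3.11% ± 0.403 (SD, n = 3). With these reads added to Mir101a, an alternative chosen after seeing the data, the reference form was at 265, 248 and 236 RPM, or 250 ± 15.0 RPM, and the ratio was 1.63 ± 0.0917 (SD, n = 3). Both orders then turned. The mean of miR-101a-3p lay above that of miR-101b-3p-1, whose libraries it overlapped, and the Mir101a ratio lay below the 1.78 ± 0.0726 of Mir101b. Which of these reads came from Mir101a was not tested.

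The remaining hairpin reads were few and differed between the genes. Those other than the 5p reads are described after their values were seen. The 5p arm of Mir101a had 50, 37 and 34 reads of 19 to 23 nt, 0.690% ± 0.162 of the reads of both arms (SD, n = 3). Of these, 78.0% ± 9.57 began 1 base downstream of the 5p start in RefSeq (SD, n = 3), with the seed that the capitals mark in the second line.
miR-101a-5p: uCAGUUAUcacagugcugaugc
miR-101a-5p+1: cAGUUAUCacagugcugaugcu
The most frequent 5p read had 21 nt, with 35, 23 and 17 reads, and ended 16 bases before the reference start of the 3p arm. Directly after that end began reads of 36 to 38 nt that ran through the loop and the whole 3p arm. With neighbouring starts they came to 6, 8 and 4 reads, and 15 of the 18 had a mismatching last base, a uridine in 13. Another 15 reads lay upstream and ended at the last base before a 5p start. At Mir101b, by contrast, a 5p read without the loop was found once. There, 3, 6 and 6 reads of 35 to 39 nt joined the 5p arm and the loop. Of these 15 reads, 5 ended at the last base before the -1 start of the 3p arm and 8 at the last base before its reference start. No read that joined the loop to the 3p arm was found at Mir101b, and none that joined the 5p arm to the loop at Mir101a, where 0 reads allow up to 0.324 RPM in the smallest library. The difference between the genes in these reads was not tested.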

How the data were processed

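Per the study's methods and the submitters' processing notes, the authors trimmed the adaptor with cutAdapt 1.0, aligned reads without mismatches to mm9 with Bowtie 0.12.7, and aligned the rest near those matches with SHRiMP 2.2.2. The values the authors deposited are expected counts per distinct alignment, a read with several loci being divided among them. The authors did not pool replicates. Here only cluster values and whole-number shares combine the 3 libraries, beside counts given as totals. Here, with Python 3.11.15, numpy 2.4.6, pandas 2.3.3, scipy 1.17.1 and matplotlib 3.10.9, reads were summed by 5′-start, 3′-end and mismatch. Alignments without a mismatch ended 1 base early and were corrected. Forms were placed by matching the study's tabulated expression within 0.2%. RPM is relative to all mapped reads. Named were both hairpins, starts with at least 10 reads, loci sharing reads, and the 3 isomiRs nearest in ratio to each gene, with exceptions stated where they appear. The code was tested on simulated data. The members and lists were chosen with earlier results of these data known. Of the marker miRNAs listed, miR-7a-5p was at 210 ± 22.9 and 195 ± 21.2 RPM at its 2 loci (SD, n = 3). miR-143-3p matched 2 loci and has no value here, and miR-122, miR-142 and miR-1a have no value either.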

Additional observations from a re-analysis of the deposited data

How the results depend on the processing

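Of 90 alternative values, 74 kept their direction or moved by less than 1 SD and 15 moved further. The other is a count of clusters. The differences in mean 3′-end, mismatching last base and uridine after base 21 kept their sign in all alternatives run. Ends as written in the files were not among the alternatives for the last base or the uridine. At Mir101a both rest on the placement of reads without a mismatch. With reads without a mismatch only, the ratio of -1 to reference reads was 4.44 at Mir101a and 2.34 at Mir101b, and the levels in RPM were 356 and 80.2 for miR-101a-3p-1 and miR-101a-3p and 205 and 87.6 for miR-101b-3p-1 and miR-101b-3p. This setting removes the reads with a mismatching last base, which are mostly reference reads. With reads without a mismatch as the denominator, these 4 levels were 551, 257, 341 and 191 RPM. With mismatching 3′ bases removed from all alignments, the overlap of ends at Mir101a was 46.4%. Reads with whole-number values gave miR-101a-3p 173 RPM. The chromosome 9 copies, added after seeing the data, brought the Mir101a ratio to 1.63 and miR-101a-3p to 250 RPM. With clusters of at least 100 reads, 86 of 616 clusters passed the 40% limit, against 14 of 207. Leaving out each replicate reversed no difference. With end positions as written in the files, the overlap and mean end difference of Mir101b were as reported, and the order of the forms turned at Mir101a, whose ratio was 0.0848. Its -1 start then had 0, 0 and 1 reads without a mismatch and its reference start 3513, 3620 and 3609, so its ends could not be compared. With the corrected ends, both starts of Mir101a matched the study's tabulated levels within 0.2%. The forms were compared within each library. With a single growth condition, conditions could not be compared. At this depth, 0 reads allow up to 3 reads.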
